A study of Homo sapiens with 8 samples.

Results

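The 35 genes described here encode the enzymes that build cholesterol and fatty acids, the SREBP proteins that control them, and carriers that move sterols within and out of the cell. They were chosen by name from these pathways with earlier results of these data known, so their shares beside all genes are descriptive only. All 35 were found among the 17131 genes of the expression table and had enough reads to be tested. The libraries came from HaCaT cells, an established line of human keratinocytes, entered as wild type. Every culture was kept in the M5 cocktail, a mixture of oncostatin M, TNF-α, IL-1α, IL-17A and IL-22 that brings keratinocytes into a psoriasis-like state, and no unstimulated culture was analysed here. There were 4 libraries titled M5_O5 and 4 titled M5, and the comparison asks what an inhibitor of the kinase TOPK, added ahead of the cytokines and kept with them for 24 h, changes in these cells. The labels contradict each other on which group received the inhibitor, since the title M5_O5 reads as M5 plus the inhibitor OTS514, while the treatment field enters the inhibitor for the libraries titled M5 and none for M5_O5. All directions are therefore given between titles. Where the treatment field is right, a gene higher in M5_O5 is a gene lower with the inhibitor, and where the titles are right, it is a gene higher with the inhibitor. No label says that the libraries of a group came from separate cultures, so the p-values measure only the spread between these libraries, which may be technical.

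Cells make cholesterol from acetyl-CoA in a long chain of reactions. The mevalonate arm leads to farnesyl diphosphate, and the sterol arm turns it into squalene, closes the sterol rings and trims the product to cholesterol. When sterol in the endoplasmic reticulum is low, SCAP carries the precursors of SREBP-1 and SREBP-2 to the Golgi, where proteases release the active transcription factors, and INSIG proteins hold SCAP back when sterol is plentiful. The LXR receptors respond to oxidised sterols and raise ABCA1 and ABCG1, which export cholesterol, and MYLIP, a ubiquitin ligase that lowers lipoprotein receptors. In keratinocytes, newly made cholesterol and fatty acids are needed both for cell membranes and for the lipids of the epidermal barrier.

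The promoters of these genes are classic sites of SREBP binding, so the letters of the sterol regulatory element were looked for in the RefSeq promoter windows (GRCh38.p14, 300 bases each), which were available for 30 of the 35 genes in 42 windows. No window was available for ACAT2, FDFT1, SQLE, FASN and ABCG1. The element, written as TCACNCCA on either strand, was found in 3 of the 30 genes. It was in 7.14% of their windows and in 3.95% of all 35097 windows. The stretches around it are shown for these 3 genes because 2 of them, MVK and MSMO1, were among the genes higher in M5_O5 and the other, SREBF2, was lower. The element and each CCAAT box (ATTGG on the other strand) are in capitals, and each stretch is written 5′ to 3′ on the strand of its gene.
MVK, chr12:109573563-109573642, plus strand: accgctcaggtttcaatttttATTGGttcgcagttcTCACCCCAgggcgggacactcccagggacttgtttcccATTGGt
MSMO1, chr4:165327477-165327556, plus strand: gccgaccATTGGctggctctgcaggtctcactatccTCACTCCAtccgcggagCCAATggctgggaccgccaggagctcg
SREBF2, chr22:41832936-41833015, plus strand: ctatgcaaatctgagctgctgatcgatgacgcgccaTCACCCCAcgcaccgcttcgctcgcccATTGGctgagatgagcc
Each element lies upstream of the annotated gene start, beginning 195 bases before it in MVK, 156 in MSMO1 and 133 in SREBF2. The CCAAT box, the letters bound by NF-Y, was present in 22 of the 30 genes, or 61.9% of their windows against 34.6% of all windows. Of the 13 genes with a window that were higher in M5_O5, 12 held it. Among these 13, 12 held the Sp1 letters GGGCGG, 2 the sterol element and 2 the E-box CACGTG. The share over all genes higher in M5_O5 is not given, and a link between these letters and the rise was not tested. The Sp1 letters GGGCGG were in 29 of the 30 genes and in 88.1% of their windows, against 44.9% of all windows. Over genes rather than windows, CCAAT was in 73.3% of the 30 and 43.5% of the 10208 tested genes with a window, GGGCGG in 96.7% and 76.6%, and the sterol element in 10% and 4.79%. The E-box CACGTG, which reads the same on both strands, was in 5 genes and 14.3% of windows, against 7.25% of all windows, or 16.7% of the 30 genes against 12.5% of tested genes. A direct repeat of AGGTCA with 4 bases between, the form bound by LXR, was in 0 of the 42 windows and in 0.0199% of all. ABCG1, which had no window, was not searched. These are letter matches only, and the other genes may carry forms that this spelling does not cover.

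The libraries held 13708055 to 16922693 estimated counts, the smallest being M5 replicate 1. The libraries held the transcripts of their label. Keratinocyte markers such as KRT5, KRT14 and TP63 summed over 8 genes to 15958 to 18475 CPM (the count relative to library size after TMM scaling) in M5_O5. In M5 they summed to 18893 to 22612 CPM. Of the 8, 4 were called lower in M5_O5, where 17.6% of all tested genes were lower. The 3 melanocyte markers in the table summed to at most 1.09 CPM. The fibroblast list (6 genes) summed to 32.98 to 36.59 CPM in M5_O5 and 43.07 to 58.32 in M5, mostly COL1A1, the leukocyte list (5 genes, mostly CD14, with PTPRC under 0.1 CPM) to 31.73 to 37.4 and 36.21 to 40.41, and the endothelial list (3 genes, mostly CDH5, with PECAM1 under 0.1 CPM) to 3.102 to 3.793 and 0.249 to 1.045. The 3 adipocyte markers reached at most 0.93 CPM, with ADIPOQ and LPL under 0.1, and the sebocyte list had 1 of 3 genes in the table, at most 0.131 CPM. The part of these marker differences in the lipid genes was not tested. PBK, which encodes TOPK, had 3.60, 2.93, 2.25 and 3.15 CPM in the M5_O5 libraries and 2.63, 0.588, 0.987 and 0.685 in the M5 libraries, with M5 replicate 1 inside the M5_O5 range. M5 replicate 1 stood apart from the other M5 libraries in the lipid genes too, being the lowest of its group in 26 of the 35, so values without it are given where a call changed and for further genes whose value moved. The share of all genes in which it was lowest is not given. Over all genes it differed from the other M5 libraries by 10.35 to 16.49 times sampling noise (chi-square per degree of freedom). Those libraries differed among themselves by 2.03 to 4.06.

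Of the 35 genes, 14 rose and 3 fell in the M5_O5 libraries relative to M5 (edgeR, adjusted p under 0.05), and 18 did not pass. The genes that rose made up 40% of the 35, where 19.5% of all 12434 tested genes were higher, and those that fell made up 8.57%, where 17.6% of all genes were lower. The median log2 fold change was 0.15 over the 35 genes and 0.01 over all genes tested. All differences were under 2-fold, from -0.74 for ABCG1 to 0.76 for TM7SF2 on the log2 scale. At a threshold of 2-fold, edgeR, DESeq2 and limma each called 0 of the 35 genes, with an adjusted or an unadjusted p, while edgeR called 2.87% of all genes higher and 0.33% lower. In 12 of the 35 genes every M5_O5 library lay above every M5 library, and in 3 every M5_O5 library lay below, against 17.8% and 15.8% of all genes. The samples were sequenced in bulk, so fewer cells expressing a gene and less RNA per cell cannot be told apart.

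**Figure D1:**
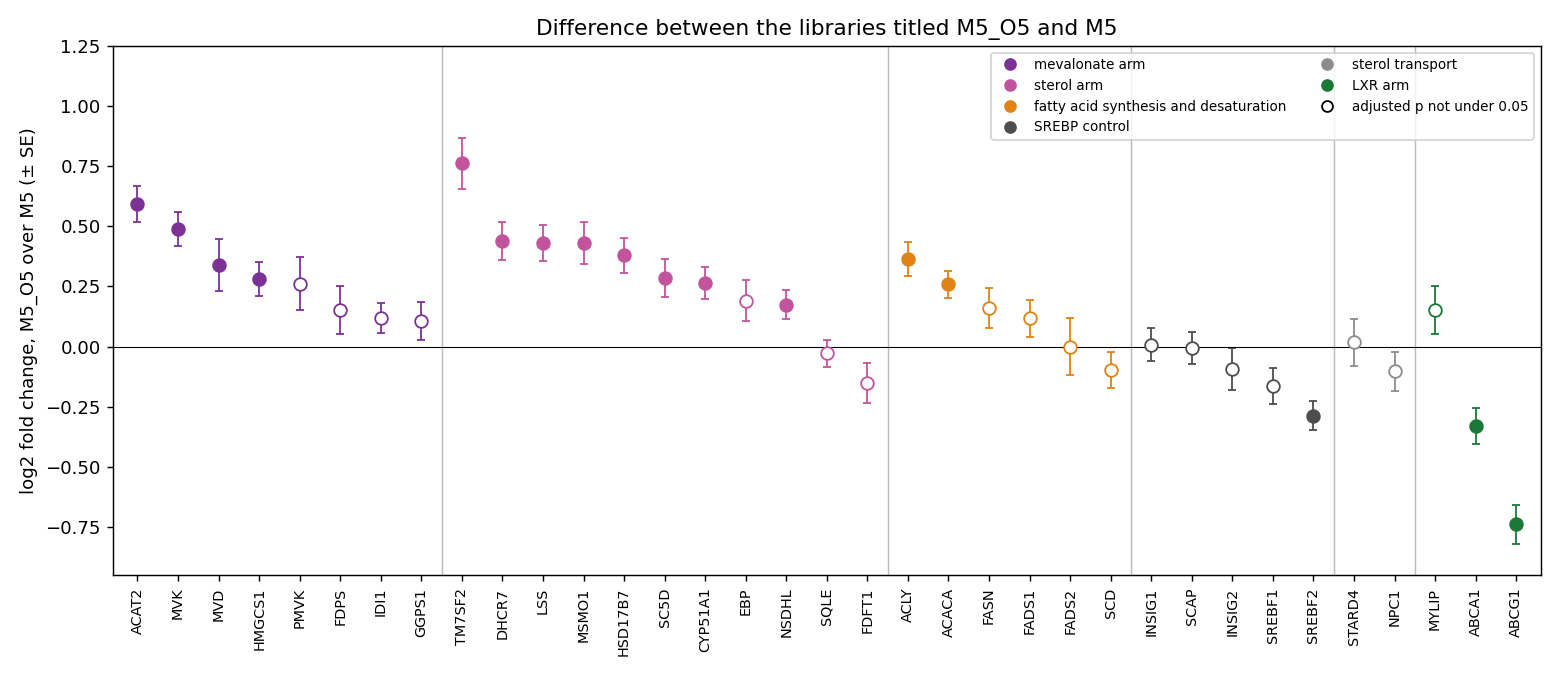
Log2 fold change of each of the 35 genes, M5_O5 over M5, with its standard error, grouped by role; filled points had an adjusted p under 0.05 and open points did not. Filled points in the mevalonate and sterol arms lie above 0, from 0.17 for NSDHL to 0.76 for TM7SF2, and the filled points of SREBF2, ABCA1 and ABCG1 lie below 0.

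Most of the genes that rose were enzymes of cholesterol synthesis. Of the 19 enzymes of the mevalonate and sterol arms, 12 rose and 7 did not pass, with a median log2 fold change of 0.28. Of the other 16 genes, 2 rose, 3 fell and 11 did not pass, with a median of -0.003. Of all tested genes, 19.5% were higher and 17.6% lower. The TPM values, which allow genes to be summed per length, gave 2512, 2287, 2273 and 2385 TPM for the 19 enzymes together in the M5_O5 libraries. In the M5 libraries the sum was 1765, 1800, 2008 and 1940. All M5_O5 sums lay above all M5 sums, with means of 2364 ± 111 and 1879 ± 115 TPM (SD, n = 4), 25.9% apart. On the TPM scale the median of all genes was itself 8.4% higher in M5_O5.

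**Figure D2:**
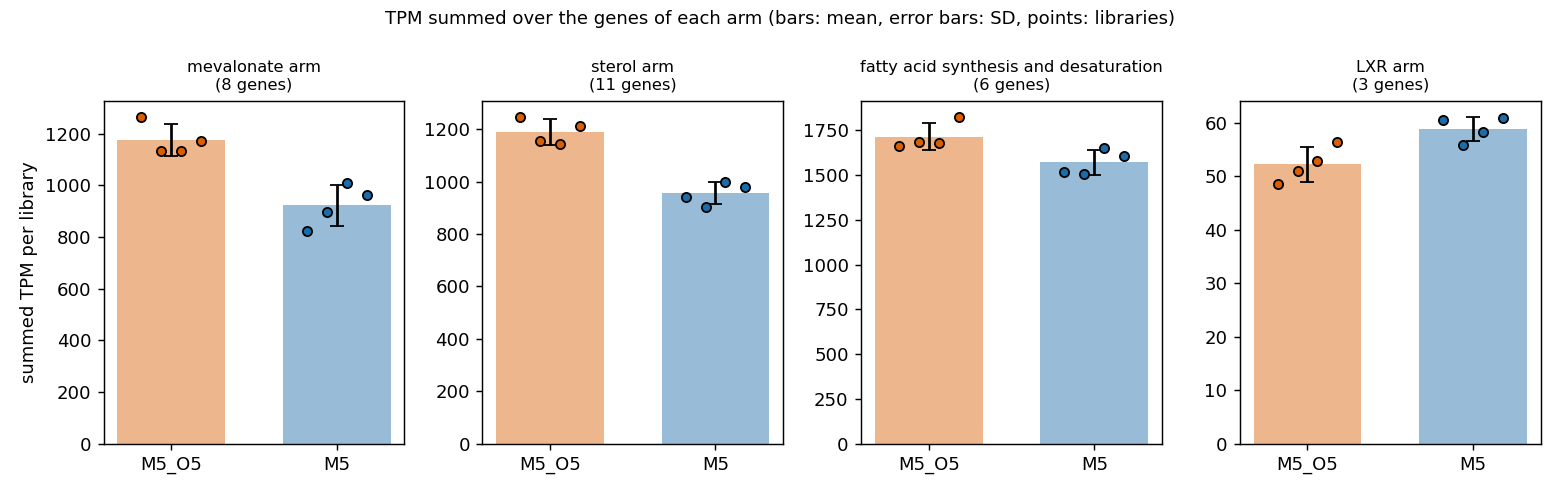
TPM summed per library over the genes of 4 arms, for the libraries titled M5_O5 and M5; bars are means, error bars SD and points single libraries (n = 4). The mevalonate arm had 1175 ± 63.2 TPM in M5_O5 and 922.5 ± 80 in M5, the sterol arm 1189 ± 49.3 and 956 ± 41.8, the fatty acid genes 1715 ± 74.9 and 1572 ± 70.1 and the LXR arm 52.25 ± 3.3 and 58.89 ± 2.25. Means were 27.4%, 24.4% and 9.1% higher in M5_O5 for the first 3, where the median of all genes was 8.4% higher on the TPM scale. The sums of the LXR arm overlapped between the groups.

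In the mevalonate arm, 4 of 8 genes rose and 4 did not pass, where 19.5% of all tested genes were higher. All 8 fold changes were above 0, with the 4 that did not pass included. ACAT2, the cytosolic thiolase that joins acetyl-CoA units at the start of the pathway, had 40.9, 44.7, 45.9 and 45.1 CPM in the M5_O5 libraries and 25.0, 29.9, 30.5 and 31.4 in the M5 libraries. The groups did not overlap, and the log2 fold change was 0.59 ± 0.075 (SE, adjusted p = 4.88e-05, edgeR), a fold of 1.51. MVK, the kinase that phosphorylates mevalonate and one of the genes with the element printed above, had 38.7, 37.7, 39.7 and 37.7 CPM against 23.9, 29.0, 28.2 and 28.3. The M5_O5 libraries were close to each other (SD 0.933 CPM, n = 4) and lay clear of all M5 libraries, with a log2 fold change of 0.49 ± 0.070 (SE, adjusted p = 0.000125, edgeR).

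MVD, which decarboxylates mevalonate diphosphate, had 158, 125, 146 and 125 CPM in M5_O5 and 82.1, 120, 121 and 115 in M5. The groups were separate by a small margin, the log2 fold change was 0.34 ± 0.11 (SE, adjusted p = 0.0253, edgeR), and the call was lost without M5_O5 replicate 1 (0.27, adjusted p = 0.0754) or M5_O5 replicate 3 (0.31, adjusted p = 0.0672). Without M5 replicate 1 its value was 0.22 (adjusted p = 0.0265). HMGCS1, the synthase that makes HMG-CoA, rose by 0.28 on the log2 scale (standard error 0.071, adjusted p = 0.00634), from 339 ± 34.8 CPM in M5 to 412 ± 19.3 in M5_O5 (SD, n = 4). PMVK, the second kinase, had a fold change of 0.26 (adjusted p = 0.0819). The remaining genes of the arm had smaller values, 0.15 for FDPS (adjusted p = 0.245), 0.12 for IDI1 (adjusted p = 0.156) and 0.11 for GGPS1 (adjusted p = 0.310), and in each of these the groups overlapped. Without M5 replicate 1 the value of FDPS was 0.03 (adjusted p = 0.621).

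In the sterol arm, 8 of 11 genes rose and 3 did not pass, where 19.5% of all tested genes were higher. The 3 that did not pass were FDFT1 and SQLE, at the entry, and EBP, a late step. FDFT1, squalene synthase, had 196, 238, 213 and 220 CPM in M5_O5 and 199, 249, 266 and 250 in M5, a log2 fold change of -0.15 ± 0.083 (SE, adjusted p = 0.165, edgeR). SQLE, squalene epoxidase, had a fold change of -0.03 (standard error 0.056, adjusted p = 0.711), and its libraries ran from 233.9 to 256.4 CPM in M5_O5 and from 234.5 to 267.5 in M5. Both genes overlapped between the groups. The value of FDFT1 depends on how its reads are placed, since the table lists the gene at more than one genomic placement and 81.8% of its TPM in M5_O5 and 79.6% in M5 sat on a further placement of its main transcript. With further placements left out, FDFT1 was called lower in M5_O5 (-0.34, adjusted p = 0.0263), and without M5 replicate 1 it was called lower as well (-0.24, adjusted p = 0.00645).

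The 8 genes of the arm that rose act from ring closure onward, a boundary that was not set in advance. LSS, which closes the rings to lanosterol, had 142, 151, 162 and 142 CPM in M5_O5 and 94.0, 114, 116 and 119 in M5, a log2 fold change of 0.43 ± 0.074 (SE, adjusted p = 0.000471, edgeR). CYP51A1, the lanosterol demethylase, rose by 0.26 (standard error 0.066, adjusted p = 0.00651), with 192 ± 11.9 against 160 ± 13.0 CPM (SD, n = 4). TM7SF2, a sterol reductase, showed the largest rise of the 35 genes, with 11.0, 9.65, 11.6 and 10.6 CPM against 6.72, 6.86, 5.79 and 5.92. Its groups were far apart relative to their spread, with a log2 fold change of 0.76 ± 0.11 (SE, adjusted p = 9.93e-05, edgeR), a fold of 1.70, although it was among the weakly expressed members.

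The enzymes that remove the methyl groups next to the sterol's hydroxyl moved in the same direction by different amounts. MSMO1, the oxygenase of this step, had 241, 195, 190 and 226 CPM in M5_O5 and 161, 134, 176 and 161 in M5, a log2 fold change of 0.43 ± 0.088 (SE, adjusted p = 0.0018, edgeR). HSD17B7, its reductase, had 29.4, 28.1, 29.2 and 28.5 CPM against 20.5, 21.2, 24.9 and 22.0, a log2 fold change of 0.38 ± 0.073 (SE, adjusted p = 0.00123). Both genes separated the groups completely. NSDHL, the dehydrogenase between them, rose by 0.17 (standard error 0.059, adjusted p = 0.031) with overlapping groups, and its call was lost with DESeq2 (adjusted p = 0.062), with no filter on counts (adjusted p = 0.050) and without any one of 6 libraries (M5_O5 replicates 1, 2 and 3 and M5 replicates 1, 3 and 4, adjusted p from 0.0574 to 0.0867).

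At the end of the pathway, DHCR7, the reductase that yields cholesterol, had 218, 235, 240 and 225 CPM in the M5_O5 libraries and 137, 182, 176 and 182 in the M5 libraries. Every M5_O5 library was higher than every M5 library, and the log2 fold change was 0.44 ± 0.079 (SE, adjusted p = 0.000713, edgeR). SC5D, the sterol desaturase before it, rose by 0.29 (standard error 0.078, adjusted p = 0.0106), and its groups overlapped in that M5 replicate 1 had 129 CPM against 122 in M5_O5 replicate 3. EBP, the sterol isomerase, had 0.19 (standard error 0.085, adjusted p = 0.0929) and did not pass, and without M5 replicate 1 it had 0.10 (adjusted p = 0.199). For each of the 15 genes whose groups did not overlap, the two-sided exact permutation test on CPM returned 0.0286 as its p, which is the lower limit for groups of 4.

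**Figure D3:**
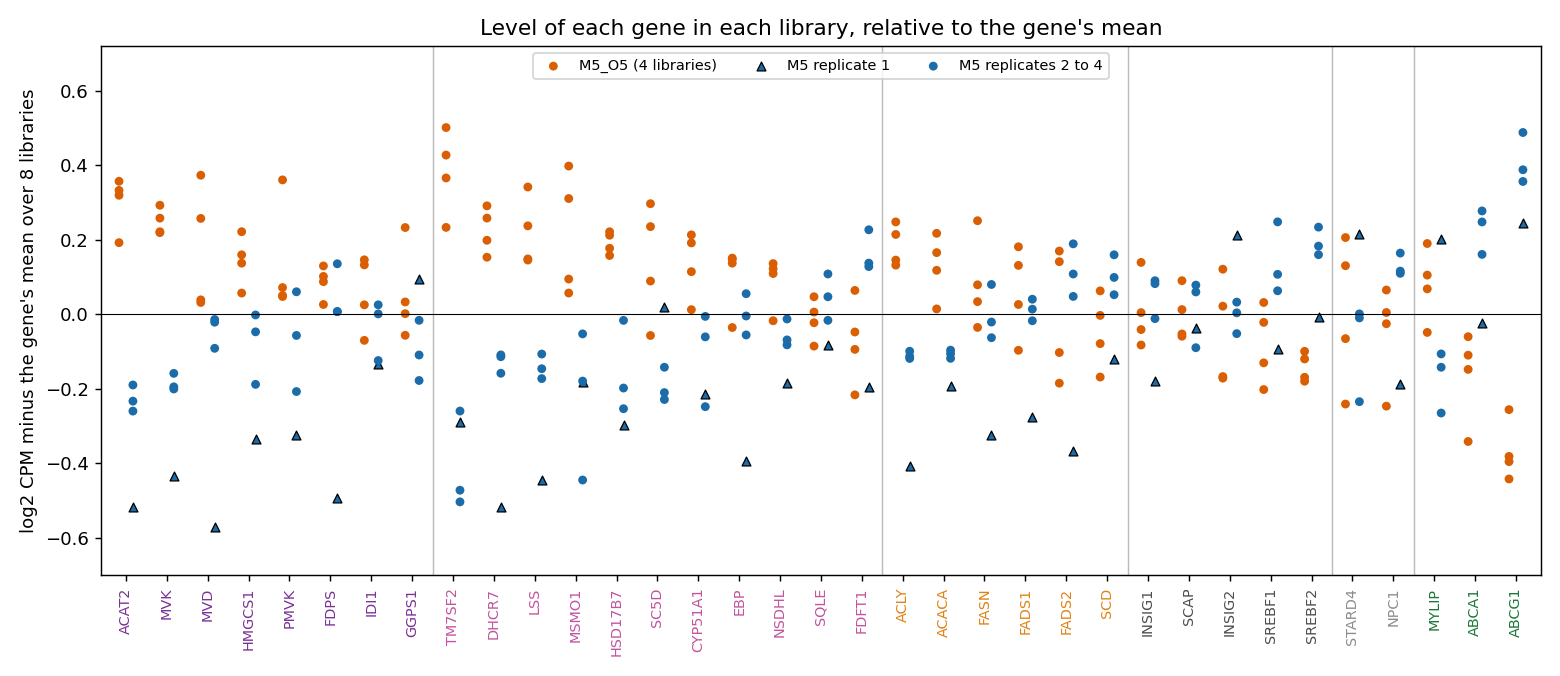
Level of each of the 35 genes in each library as log2 CPM minus that gene's mean over the 8 libraries; orange points are M5_O5, blue points M5, and triangles M5 replicate 1. In ACAT2, MVK, LSS, DHCR7 and ACLY the orange points lie above all blue ones, in SREBF2, ABCA1 and ABCG1 below all, and the triangle is the lowest of the M5 libraries in 26 genes.

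Of the 6 fatty acid genes, 2 rose and 4 did not pass, where 19.5% of all tested genes were higher. ACLY, which makes cytosolic acetyl-CoA from citrate for both pathways, had 448, 474, 485 and 452 CPM in M5_O5 and 308, 377, 382 and 378 in M5, a log2 fold change of 0.36 ± 0.069 (SE, adjusted p = 0.00102, edgeR). ACACA, the carboxylase that commits acetyl-CoA to fatty acid synthesis, rose by 0.26 (standard error 0.056, adjusted p = 0.00252), from 136 ± 4.08 to 163 ± 9.66 CPM (SD, n = 4). In both genes the groups were separate. FASN, the synthase that follows, had 879, 907, 1022 and 838 CPM against 687, 908, 822 and 846, a log2 fold change of 0.16 ± 0.084 (SE, adjusted p = 0.147). Without M5 replicate 1 the value of FASN was 0.085 (adjusted p = 0.315).

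The desaturases among the 35 genes did not pass, with or without M5 replicate 1. Outside the 35, FADS3 was called higher (0.49, adjusted p = 0.000188, edgeR) and SCD5 was not called (0.09, adjusted p = 0.536). Both were named after their values were seen. SCD, which introduces the first double bond and was the most abundant of the 35 genes at 1154 TPM, had 3227, 3619, 3434 and 3788 CPM in M5_O5 and 3334, 3761, 4051 and 3884 in M5, a log2 fold change of -0.10 ± 0.075 (SE, adjusted p = 0.335, edgeR). The groups overlapped over most of their range. Without M5 replicate 1 the value of SCD was -0.15 (adjusted p = 0.0611). FADS1 had 0.12 (standard error 0.077, adjusted p = 0.242) and 0.05 without that library (adjusted p = 0.535). FADS2, the first enzyme of polyunsaturated fatty acid synthesis, was at 13.3 CPM in both groups (SD 1.61 and 2.11, n = 4, adjusted p = 0.998).

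The SREBP control genes did not follow the enzymes. SREBF2, which encodes SREBP-2, the main activator of the cholesterol enzymes, fell in M5_O5, with 383, 399, 405 and 386 CPM against 432, 510, 485 and 493 in M5. All 4 M5_O5 libraries were below all M5 libraries, with means of 393 ± 10.5 and 480 ± 33.7 CPM (SD, n = 4), and the log2 fold change was -0.29 ± 0.059 (SE, adjusted p = 0.00183, edgeR). Its fold change was below 0 under every other scaling, filter, tool and left-out library, from -0.34 to -0.16, with adjusted p-values up to 0.0175. SREBF1, which encodes SREBP-1, had 316, 358, 372 and 332 CPM against 341, 432, 380 and 392, a log2 fold change of -0.16 ± 0.073 (SE, adjusted p = 0.0933). Without M5 replicate 1 it passed toward lower values (-0.22, adjusted p = 0.0112).

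The genes of the escort and anchor proteins of SREBP did not pass. SCAP had 34.8, 33.1, 36.7 and 33.2 CPM in M5_O5 and 33.6, 35.9, 32.4 and 36.4 in M5. INSIG2 had 25.4, 20.7, 20.8 and 23.7 CPM against 27.1, 22.5, 23.9 and 23.4. INSIG1, itself a well known SREBP target, had 219, 226, 213 and 248 CPM against 199, 223, 240 and 238. In all 3 genes the groups overlapped. SCAP had a log2 fold change of -0.01 ± 0.066 (SE, adjusted p = 0.954), INSIG1 of 0.01 (standard error 0.068, adjusted p = 0.941) and INSIG2 of -0.10 (standard error 0.087, adjusted p = 0.413), all by edgeR. The sterol carriers STARD4, a soluble cholesterol transfer protein, and NPC1, which brings cholesterol out of lysosomes, had values of 0.02 (adjusted p = 0.912) and -0.10 (adjusted p = 0.344). NPC1 was called lower without M5 replicate 1 (-0.18, adjusted p = 0.0387).

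The genes of sterol export moved opposite to the enzymes. ABCG1 had 11.3, 11.0, 11.4 and 12.5 CPM in the M5_O5 libraries and 17.7, 20.9, 19.1 and 19.5 in the M5 libraries. No library of one group came near the other, and the log2 fold change of -0.74 ± 0.083 (SE, adjusted p = 1.74e-05, edgeR) was the largest fall of the 35 genes, 1.67-fold higher in M5. ABCA1 had 190, 223, 217 and 230 CPM against 236, 268, 285 and 291, a log2 fold change of -0.33 ± 0.074 (SE, adjusted p = 0.0033), with the nearest libraries 230 and 236 CPM. MYLIP, the third LXR target, had 15.3, 18.0, 17.0 and 16.6 CPM against 18.2, 14.7, 13.2 and 14.3. Its groups overlapped only through M5 replicate 1, and its log2 fold change of 0.15 ± 0.10 (SE, adjusted p = 0.250) became 0.25 without that library (adjusted p = 0.0313).

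**Figure D4:**
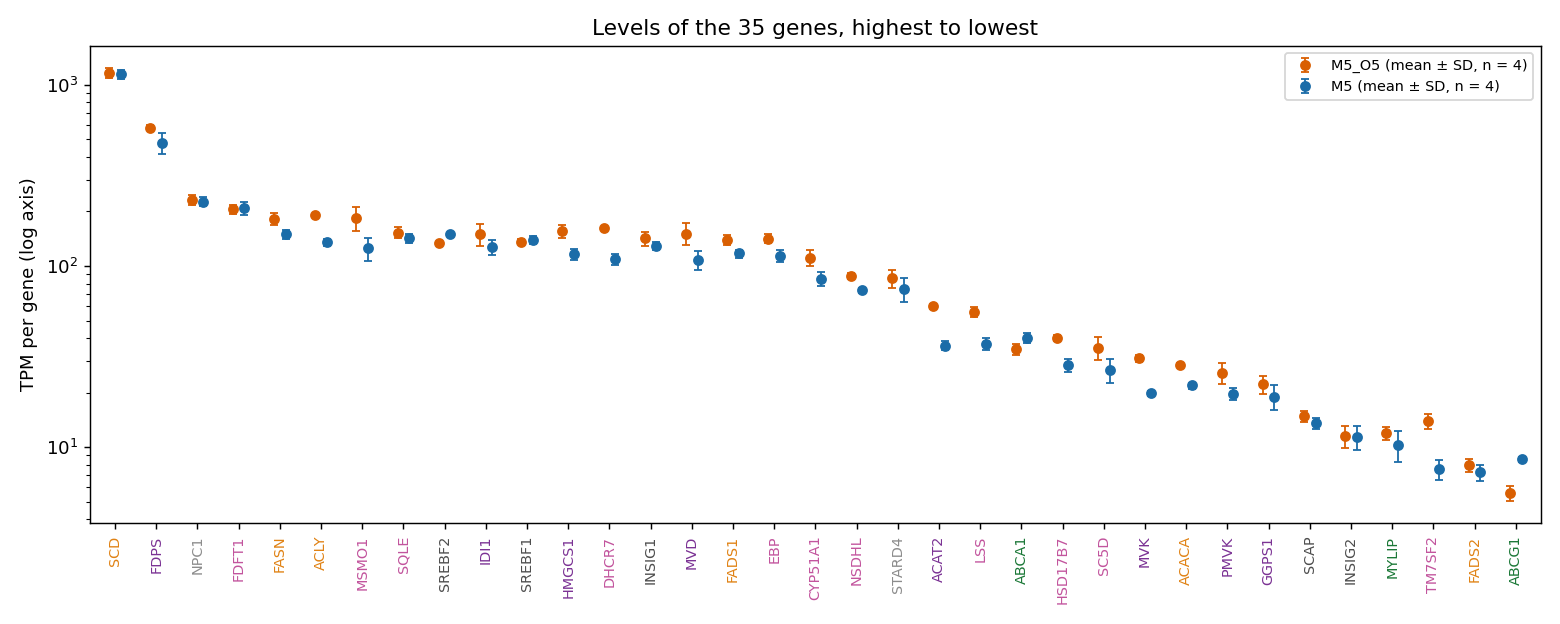
Mean TPM of each of the 35 genes in the libraries titled M5_O5 and M5 (SD, n = 4), on a log axis, from the most to the least abundant. SCD stands highest at 1154 TPM over all libraries, followed by FDPS at 528 TPM, and ABCG1 stands lowest at 7.08 TPM.

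The most abundant members, SCD (1154 TPM), FDPS (528 TPM) and NPC1 (229 TPM), did not pass, while TM7SF2 (10.7 TPM) and ABCG1 (7.08 TPM), among the least abundant, had the largest rise and fall. ACLY (163 TPM), MSMO1 (154 TPM) and DHCR7 (136 TPM) were abundant and rose. The split of a gene's TPM among its transcripts was estimated too. Means were close in both groups for the main SREBF1 transcript NM_001321096 at 58.1% ± 4.54 in M5_O5 and 56.2% ± 2.40 in M5 and the main SREBF2 transcript NM_004599 at 91.0% ± 1.72 and 90.9% ± 0.458 (SD, n = 4). They were further apart for MYLIP NM_013262, at 59.6% ± 9.98 and 42.7% ± 13.3, and for MVK NM_000431, at 38.6% ± 4.52 and 49.7% ± 9.65. LSS NM_001145437 had 23.7% ± 1.43 and 29.8% ± 3.61, and NSDHL NM_001129765 had 17.0% ± 1.63 and 10.9% ± 2.68. ABCG1 was divided between NM_016818, at 50.8% ± 4.52 and 51.7% ± 15.7, and NM_004915, at 39.3% ± 5.59 and 38.7% ± 14.7. These shares are estimates from short reads and were not tested.

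Further genes of the pathway were examined as lists, of which 56 genes were tested, 17 rose and 4 fell (30.4% and 7.14%, against 19.5% and 17.6% of all genes). These lists too were chosen with earlier results of these data known. Among 11 other genes of sterol synthesis, uptake and transport, 7 rose and 2 fell. TMEM97, a sterol-responsive membrane protein that binds NPC1, rose by 1.45 on the log2 scale (standard error 0.21, adjusted p = 0.00013, edgeR). It had 5.21 ± 1.08 CPM in M5_O5 and 1.92 ± 0.566 in M5 (SD, n = 4), on 22 to 108 reads per library. SCARB1, the receptor for high-density lipoprotein, rose by 1.16 (standard error 0.085, adjusted p = 7.21e-07). NPC2 and STARD3, carriers of lysosomal and endosomal cholesterol, fell by 0.38 (adjusted p = 0.0024) and 0.18 (adjusted p = 0.0269). LIPA, the lysosomal lipase that frees cholesterol from its esters, was named after its value was seen, with 219 ± 23.6 against 104 ± 9.32 CPM (SD, n = 4), a log2 fold change of 1.07 (adjusted p = 8.99e-07).

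Among 18 other genes of fatty acid synthesis and activation, 7 rose and 11 did not pass. ELOVL6, the elongase of saturated fatty acids, had 4.94, 4.19, 5.45 and 5.47 CPM against 2.04, 0.980, 2.24 and 1.31, a log2 fold change of 1.62 ± 0.21 (SE, adjusted p = 5.78e-05, edgeR). ME1, the malic enzyme that supplies NADPH, rose by 0.86 (standard error 0.067, adjusted p = 9.57e-07). In the machinery that cuts, escorts or degrades SREBP and its regulators, 2 of 10 genes rose, 1 fell and 7 did not pass, shares of 20% and 10% where 19.5% and 17.6% of all genes were called. ERLIN2, an endoplasmic reticulum scaffold, rose by 0.18 (adjusted p = 0.0333), while FBXW7, a ubiquitin ligase subunit that acts on nuclear SREBPs, fell by 0.36 (adjusted p = 0.00705).

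Of 9 genes that use isoprenoids, edgeR called 0, with 4 at an unadjusted p under 0.05, DESeq2 called 0, with 2 at an unadjusted p, and limma on log2(TPM + 1) called 3. Among 8 further genes of the LXR system, 1 rose, 1 fell and 6 did not pass. These are shares of 12.5% in each direction, below the 19.5% and 17.6% of all genes called higher and lower. NR1H3, which encodes LXRα, rose by 0.64 (standard error 0.17, adjusted p = 0.00903, edgeR) on 31 to 83 reads per library. RXRA, the partner receptor of LXR, fell from 372 ± 5.84 CPM in M5 to 301 ± 8.20 in M5_O5 (SD, n = 4), a log2 fold change of -0.31 (adjusted p = 0.000287).

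Cell cycle genes moved with the same groups. All 8 of a list, among them MKI67, TOP2A and CCNB1, rose in M5_O5, where 19.5% of all tested genes were higher. The CPM of these 8 genes summed to 196.8 to 214.4 in the M5_O5 libraries and 75.25 to 158.5 in the M5 libraries. Their mean log2(CPM + 1) was 3.71 in M5 replicate 1 and 2.88 to 3.02 in the other M5 libraries, against 4.12 to 4.27 in M5_O5. The 19 cholesterol enzymes had a mean of 6.18 in M5 replicate 1, 6.34 to 6.41 in the other M5 libraries and 6.59 to 6.64 in M5_O5. M5 replicate 1 thus lay toward M5_O5 in cell cycle genes and away from it in the enzymes. Without this library, 14 of the 35 genes rose and 6 fell, and the median log2 fold change was 0.10 in place of 0.15. The part of cell cycle differences in the enzymes' difference was not tested.

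**Figure D5:**
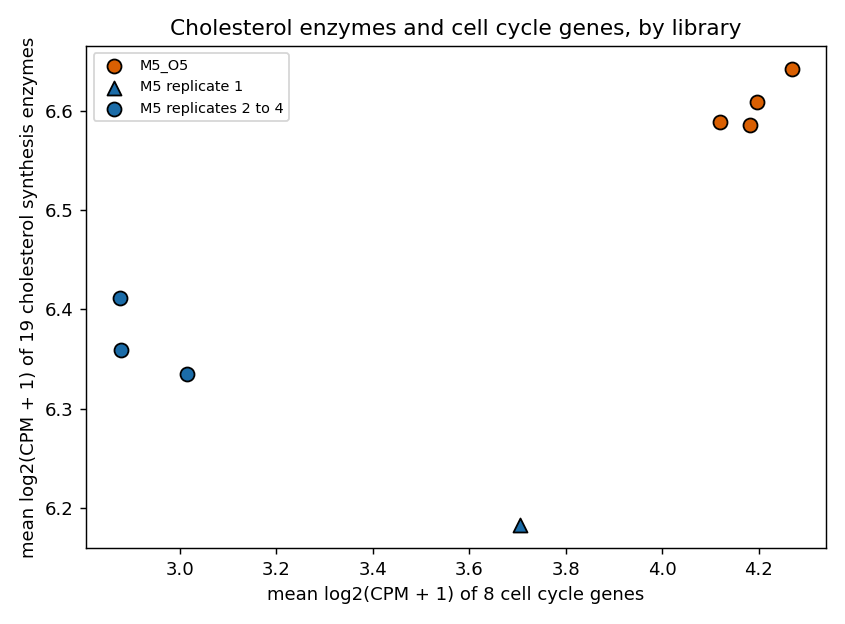
Mean log2(CPM + 1) of the 19 cholesterol synthesis enzymes against that of 8 cell cycle genes, one point per library. The M5_O5 libraries lie at 6.59 to 6.64 for the enzymes, M5 replicates 2 to 4 at 6.34 to 6.41, and M5 replicate 1 at 6.18 with a cell cycle mean of 3.71 between the groups.

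The number of genes past the threshold depended on the scaling. With library size as the only scaling, 20 of the 35 genes rose and 3 fell, the median of the 35 was 0.27 and that of all genes 0.13, and 79.3% of all calls were higher in M5_O5 in place of 52.5%. That share was 66.8% with upper-quartile scaling and 81.1% and 81.0% on the TPM scales. Relative to the median of all genes, the 35 genes stood 0.14 higher with TMM and 0.15 higher with library size only, and 0.079 higher with TMM when M5 replicate 1 was left out. PMVK, IDI1, FDPS, EBP, FADS1 and FASN passed in addition with library size only, and there SQLE, INSIG2, SCAP, NPC1, FADS2 and SCD had fold changes above 0 without passing. SREBF2, ABCA1 and ABCG1 were called lower under every alternative except the 2-fold threshold, where no gene of the 35 was called.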

How the data were processed

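RNA of 8 HaCaT samples was sequenced by a company. Filtered reads were mapped by the authors with HISAT2 2.1.0 and StringTie is named for the read counts. Per the labels, the processing notes also name Bowtie2 2.2.5 and RSEM 1.2.8, and a mouse build, although the transcripts are human, so the build used was not taken from them. The deposited table gives, for 86639 RefSeq transcripts, an estimated count that was not normalized, and TPM and FPKM by the authors (FPKM was not used further). Of its count values 53.8% were fractional. Counts were summed per Entrez gene and rounded. Symbols came from RefSeq (GRCh38.p14), which matched 17072 of 17131 genes.

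Genes were kept with filterByExpr and scaled by TMM (edgeR 4.0.16, R 4.3.3). M5_O5 was compared with M5, grouped by title, with the quasi-likelihood test over 12434 genes and p-values adjusted by Benjamini-Hochberg, calls being made under 0.05. Standard errors came from the F value. Scripts were tested on simulated counts. Replicates differed by 2.03 to 16.49 times sampling noise (chi-square per degree of freedom), so all were counted.

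The genes and lists were chosen with earlier results of these data known. Given in full were the 10 called genes with the largest change and SREBF1, SREBF2, SCAP, INSIG1, INSIG2, FASN, SCD, ABCA1, ABCG1 and MYLIP, and in each further list up to 2 genes in each direction. LIPA, FADS3 and SCD5 were added after their values were seen. A gene of these lists is not reported here by name. Alternatives were DESeq2 1.42.0, limma 3.58.1 on log2(TPM + 1) and log2(TPM + 0.1), other scalings and filters, a block for the replicate number, and leaving out 1 library at a time.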

Additional observations from a re-analysis of the deposited data

Results flagged for a closer look

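Each of the 35 genes was examined in both groups for a library whose CPM lay far from the other 3, which makes 70 groups, of which chance would set apart about 3.5 and 6 stood apart. M5 replicate 1 gave 4 of these, all below the other M5 libraries. It had 23.94 CPM of MVK against 28.17 to 29 in the others, 82.05 of MVD against 114.5 to 120.8, 137.2 of DHCR7 against 176 to 182.1, and 308.4 of ACLY against 376.5 to 381.6. The other 2 were PMVK in M5_O5 replicate 1, at 12.56 CPM against 10.11 to 10.28, and EBP in M5_O5 replicate 4, at 63.59 against 71.68 to 72.36. Without M5 replicate 1, MVK, MVD, DHCR7 and ACLY were still called higher in M5_O5. Why these libraries differed was not tested.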

How the results depend on the processing

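Of the 17 called genes, 15 kept their direction and their call under all 18 alternatives, the exceptions being MVD and NSDHL. The count of genes that rose was 12 to 20 and that of genes that fell 3 to 6, except at a threshold of 2-fold, where both were 0. Genes that fell numbered 5 with the replicate block and 3 to 6 with each library left out. The median log2 fold change of the 35 genes was 0.273 with library size only, 0.255 with limma on log2(TPM + 1) and 0.258 with log2(TPM + 0.1). Over all genes, 3858 were higher and 1008 lower with library size only, in place of 2421 and 2192, and 761 and 768 were lower on the 2 TPM scales. The TMM factors, not used in these settings, were 1.029 to 1.055 in M5_O5 and 0.938 to 1 in M5. The cause was not tested.

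Signs changed only in genes that did not pass. With library size only the fold change was 0.088 for SQLE, 0.020 for INSIG2, 0.111 for SCAP, 0.014 for NPC1, 0.118 for FADS2 and 0.022 for SCD. With limma on log2(TPM + 1) these were 0.10, 0.025, 0.116, 0.027, 0.118 and 0.031, and on log2(TPM + 0.1) 0.10, 0.027, 0.123, 0.027, 0.132 and 0.031. Upper-quartile scaling gave 0.026 for SQLE, 0.050 for SCAP and 0.055 for FADS2. INSIG1 was -0.012 with DESeq2 and -0.006 with RLE scaling, STARD4 was -0.002 with DESeq2, and FADS2 was 0.005 with at least 10 counts in every library and 0.004 with the block. With each library left out, SQLE ranged from -0.061 to 0.001, INSIG1 from -0.048 to 0.038, SCAP from -0.038 to 0.019, STARD4 from -0.056 to 0.094 and FADS2 from -0.104 to 0.062.

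The deviations of libraries with the same replicate number correlated with r from -0.004 to 0.209, and those with different numbers from -0.201 to 0.206. Of 8 libraries, 3 correlated best with their own number. Over all genes, the fit that allowed for this number called 2703 higher and 2552 lower, in place of 2421 and 2192. Whether libraries of 1 number shared more than the number was not tested. With the replicate number as a block, 16 genes rose and 5 fell, EBP and FASN being added to the first and FDFT1 and SREBF1 to the second. Standard errors of the 35 genes ran from 0.056 to 0.12, and the smallest called difference was 0.174, in NSDHL.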
